A study of Drosophila melanogaster with 3 samples.

Results

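Antp-eGFP peaks at one-strand coding promoters are peaks whose summit lies within 500 bp of a protein-coding transcription start site (TSS) on 1 strand, with no protein-coding TSS of the other strand within 500 bp. The rule was applied to the authors' optimal IDR list in dm6, a list kept by the irreproducible discovery rate, which filters peaks on the agreement of ranks between replicates. It kept 1443 peaks, 33.2% of the list (95% exact binomial interval 31.8 to 34.6), and left 2908 elsewhere. Antp-eGFP is the homeodomain protein Antennapedia fused to enhanced green fluorescent protein. In the fly line AntP-MiMIC-GFP an eGFP exon sits in an intron of Antp, so the fusion is made from the gene's own locus. Chromatin came from whole Drosophila melanogaster embryos of both sexes, aged 0 to 24 h, was sonicated to 200 to 800 bp, and was immunoprecipitated with anti-GFP. The series has 1 group of 3 biological replicates, so no groups were compared. A sample label that names Antp as the antibody goes against the description of the pulldown. Peaks of whole embryos mix all cell types, and a peak in few cells cannot be told apart from weak occupancy in many.

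At a one-strand promoter, the protein-coding starts near the summit are annotated in 1 direction only. At a divergent promoter, as counted here, they are annotated on both strands, whatever their order. Fly promoters are read through short words in their DNA. The DNA replication-related element (DRE) is bound by Dref, the Ohler 1 word by M1BP, the core word CGATA by the insulator protein BEAF-32, and GAGA repeats by the GAGA factor encoded by Trl. DRE and Ohler 1 are typical of widely expressed genes, whereas the TATA box is typical of genes with sharp, regulated starts. Homeodomain proteins such as Antp recognise cores built on TAAT, and Hox proteins also bind jointly with Extradenticle (Exd). Each word was searched on both strands: DRE as TATCGATA, Ohler 1 as GGTCACAC, GAGA as GAGAGAG and Hox-Exd as TGATNNAT. The Hox core was counted as TAATTA or TAATTG. Copies of TAATGA or TAATGG were counted with it. DRE contains CGATA, so those counts overlap.

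The DNA just upstream of the start is shown for members that carry these words and for strong members that carry neither DRE nor Ohler 1. The sequences are the 100 bases before the TSS, read 5′ to 3′ in the direction of transcription from the RefSeq dm6 assembly. Capitals mark the word named for each set. The first set shows DRE close to the start, at CG42359, RpS12 (a ribosomal protein gene) and eEF1gamma (a translation elongation factor subunit).
CG42359 chr3R:19162301-19162400, minus strand: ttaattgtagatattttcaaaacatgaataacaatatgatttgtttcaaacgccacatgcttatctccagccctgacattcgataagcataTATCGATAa
RpS12 chr3L:13023252-13023351, plus strand: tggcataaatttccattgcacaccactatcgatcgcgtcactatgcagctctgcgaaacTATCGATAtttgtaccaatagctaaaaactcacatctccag
eEF1gamma chr3R:29220072-29220171, plus strand: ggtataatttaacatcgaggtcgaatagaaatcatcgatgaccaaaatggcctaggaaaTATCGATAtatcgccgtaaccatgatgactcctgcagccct

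The second set shows Ohler 1, on either strand. lute had the strongest peak with this word, and Rnp4F holds a DRE as well, so both of its words are in capitals.
lute chr3R:17385791-17385890, plus strand: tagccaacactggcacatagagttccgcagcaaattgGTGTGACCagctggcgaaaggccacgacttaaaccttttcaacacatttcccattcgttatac
Rnp4F chrX:5322697-5322796, minus strand: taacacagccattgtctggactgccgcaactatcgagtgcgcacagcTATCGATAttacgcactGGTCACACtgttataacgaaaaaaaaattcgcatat
The third set shows ribosomal protein genes, the gene list with the largest share of bound promoters, with CGATA in capitals on either strand.
RpL23A chr3L:1668655-1668754, minus strand: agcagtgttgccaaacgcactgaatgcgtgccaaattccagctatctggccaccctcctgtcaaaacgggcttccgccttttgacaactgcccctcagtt
RpS28b chrX:9554523-9554622, plus strand: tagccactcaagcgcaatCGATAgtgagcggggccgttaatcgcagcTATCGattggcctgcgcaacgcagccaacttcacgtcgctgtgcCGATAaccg
RpL23A has no CGATA in these bases, while RpS28b has 3.

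A member with a GAGA word, chosen after the values were seen, stands beside strong members with neither DRE nor Ohler 1 whose upstream bases are clear of exons, in which Hox cores are in capitals.
CG42327 chr3R:11656049-11656148, plus strand: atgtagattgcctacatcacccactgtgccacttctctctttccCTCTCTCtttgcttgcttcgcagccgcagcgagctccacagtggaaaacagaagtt
Ugalt chrX:2703853-2703952, minus strand: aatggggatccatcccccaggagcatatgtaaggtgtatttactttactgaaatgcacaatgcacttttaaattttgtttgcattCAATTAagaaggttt
CG14100 chr3L:19590525-19590624, minus strand: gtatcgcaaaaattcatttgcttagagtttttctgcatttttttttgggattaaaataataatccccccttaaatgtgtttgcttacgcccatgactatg
Hpf1 chr3R:5791779-5791878, plus strand: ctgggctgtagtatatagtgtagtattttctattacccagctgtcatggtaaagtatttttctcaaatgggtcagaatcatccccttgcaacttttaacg
The strongest peak of the whole list, at Ugalt, has 1 Hox core in this stretch, and CG14100 and Hpf1 have none.

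One-strand promoters held about the same share of the strongest entries in every replicate. In lists as long as the IDR list, the share was 33.8% in replicate 1, 32.8% in replicate 2 and 33.3% in replicate 3 (mean 33.3% ± 0.495, SD, n = 3). Divergent promoters, with a coding TSS of each strand within 500 bp of the summit, held 19.1% of IDR summits, and introns away from promoters held 30.8%. The signal, which is the authors' strength value for each peak, had a median of 173 over the members (quartiles 131 to 288, range 103 to 4656) against 189 at divergent promoters. The ratio of these medians was 0.916 in the IDR list and 0.894 ± 0.0157 (SD, n = 3) in the replicate lists. Among the stronger peaks, those in the upper 50% of the IDR list by rank, the ratio was 1.03, on the other side of 1. Median GC content of the 201 bp around the summit was 40.3% at one-strand summits, 37.8% at divergent ones and 37.3% in introns. Read counts are not in these files and depth is therefore unknown. Intervals over peaks cover counting error only.

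The members lay mostly just upstream of the start. Of the 1443 summits, 1146 lay upstream of the nearest coding TSS (79.4%, 95% exact binomial interval 77.2 to 81.5), 2 on it and 295 downstream. In the replicate lists the upstream share was 75.0%, 79.1% and 76.1% (mean 76.7% ± 2.15, SD, n = 3). The median summit lay 95 bp upstream, with quartiles at 208.5 and 15 bp upstream, and 42.6% of summits were within 100 bp of the TSS on either side. The 50 bp next to the start on its upstream side held 237 summits, more than any other bin of that width, and the next 50 bp held 215. By annotation, 663 summits (45.9%) lay between genes, 361 in an intron and 304 in an exon of their own gene, 60 in an intron and 55 in an exon of another gene.

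**Figure D1:**
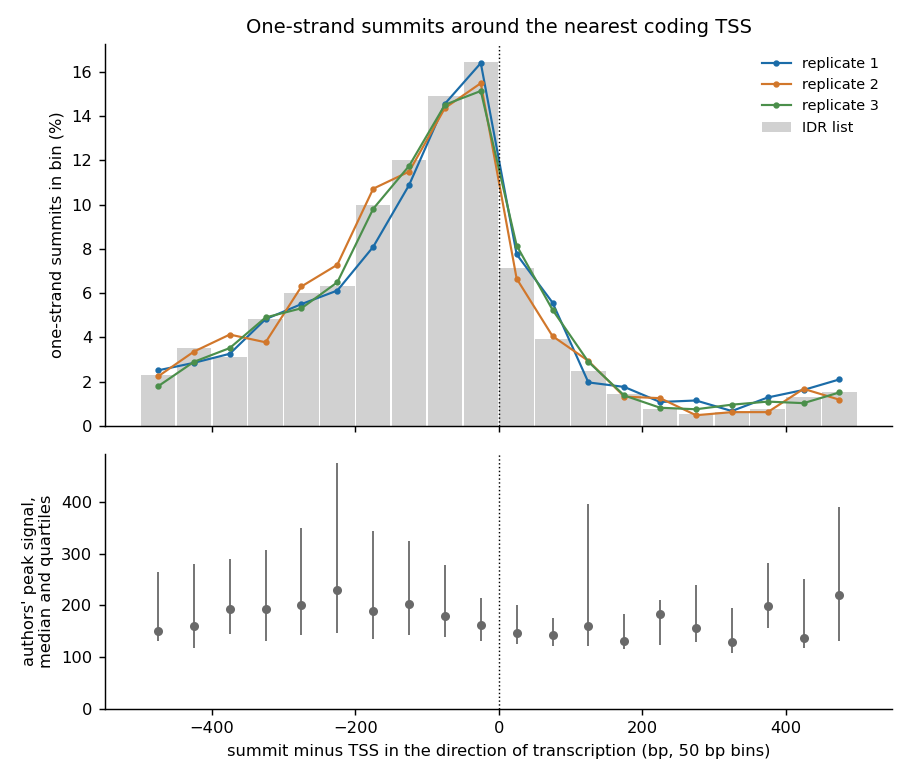
Upper panel: percent of one-strand summits in 50 bp bins by distance from the nearest coding TSS in the direction of transcription (bp, negative is upstream), bars for the IDR list and lines for each replicate's strongest entries. Lower panel: median and quartiles of the authors' peak signal per bin; the 3 replicates follow the same profile with its highest bin just upstream of the start.

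Stronger members lay upstream more often, and the strongest quartile lay farthest from the start. Across quartiles of signal, from weakest to strongest, 71.5%, 77.3%, 82.5% and 86.4% of summits were upstream, and the median distance on either side was 118, 95, 128.5 and 160 bp. Median signal was 156 for the 335 summits less than 50 bp from the TSS, 161 from there to 100 bp, and 198 for the 198 summits between 200 and 300 bp. It was 190 from 300 to 400 bp and 161 for the 126 summits from 400 to 500 bp, so the highest medians were at middle distances. Over all members, signal and distance had a Spearman rho of 0.110 (n = 1443), a weak relation across peaks that are not independent. Where the promoter had 1 annotated start position, 82.0% of 1136 summits were upstream. With 2 or more start positions it was 69.7% of 307, where a summit downstream of the nearest start can lie upstream of a later one. At the first start of a gene with 1 start position and no overlapping gene, 609 of 730 summits were upstream (83.4%).

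The upstream position faded down the ranked lists. Among the 500 strongest entries of a replicate, 36.6% ± 1.04 (SD, n = 3) were at one-strand promoters, and 85.8% ± 0.676 of those lay upstream. At the lower end of the ranks that the IDR list spans, the one-strand share was 31.6% ± 0.945 and the upstream share 65.8% ± 2.27. From there to rank 10000, which the IDR list leaves out, they were 24.8% ± 2.05 and 50.3% ± 3.38. Between ranks 20000 and 30000 they were 13.7% ± 0.691 and 38.0% ± 2.13. The authors' file descriptions call these lists peaks and background, and which entries are background is not marked.

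**Figure D2:**
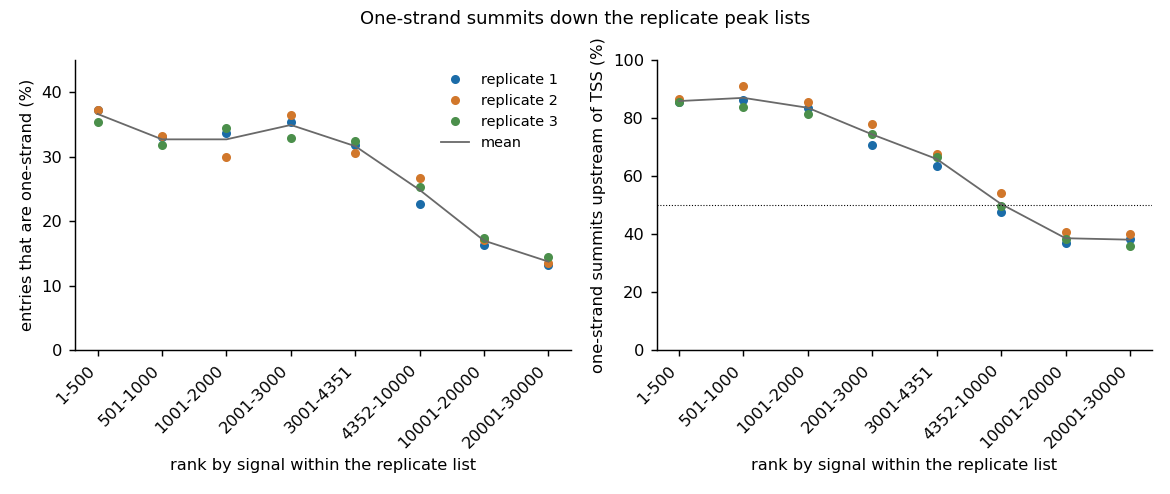
Percent of entries at one-strand promoters (left) and percent of these that lie upstream of the TSS (right), by rank of the authors' signal within each replicate list; points are replicates and lines their means. Both fall down the list, and the upstream share passes from 85.8% among the strongest entries to 38.0% at the end.

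The strongest member was at Ugalt, which encodes a UDP-galactose transporter, at chrX:2703675-2704115, 34 bp upstream of the TSS. Its signal was 4656 in the IDR list and 1479, 1551 and 1659 in replicates 1, 2 and 3, where it ranked 1 each time; signals are comparable only within a list. CG14100 followed with 3921 at chr3L:19590411-19590811, 97 bp upstream, and replicate signals of 1188, 1392 and 1372, rank 3 in each. ph-p, which encodes a subunit of Polycomb repressive complex 1, had a signal of 2408 at chrX:2137143-2137597, in an intron 474 bp upstream of an internal start. Its replicate signals were 682, 891 and 860, and its ranks were 13, 8 and 10. PNPase, a polynucleotide phosphorylase, had the strongest peak on 3R (2247, 80 bp upstream). On 2L the strongest was at Rtnl1, a reticulon of the endoplasmic reticulum (1614, 268 bp upstream of an internal start). On chromosome 4 it was at gw, a GW182 protein of microRNA silencing, with a signal of 286.

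Of the 20 strongest members, 19 lay upstream of their start and 1 downstream, at GstE13, a glutathione S-transferase gene (84 bp, signal 1877). px, a gene of wing vein patterning, had the strongest member with a GAGA word (3192, 203 bp upstream), and CG1888 had a signal of 2666 at 226 bp upstream. The transcription factor genes Sox14 (2310) and Atf3 (1752) were bound 261 and 204 bp upstream. mRpL41, a mitochondrial ribosomal protein gene, had a signal of 1865 at 156 bp upstream, and larp, an RNA-binding protein gene, 1987 at 343 bp. amon, a prohormone convertase gene (1615), moody, a G protein-coupled receptor gene of the blood-brain barrier (1451), and TRAM (1294) were bound 211, 155 and 88 bp upstream. The rest of the 20 were MFS10, CG13921, CG31145, CG13501 and CG17896, with signals of 1300 to 1979. Besides ph-p and Rtnl1, the starts at px, CG1888, PNPase, larp and MFS10 are internal starts of their genes. Those at moody, CG13501 and TRAM lie inside another gene. Of the 435 strongest IDR peaks, 158 were members, and members held 34.7% of the summed signal.

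The 1443 summits fell at 1382 TSS clusters (starts of 1 strand joined where neighbours lay within 500 bp) and 1297 nearest genes. Of the 1382 clusters 1350 were one-strand themselves, and 32 members lay at a cluster with a coding TSS of the other strand within 500 bp of a start. By number of member summits, 1321 clusters had 1, 61 had 2 and 0 had more. In the 61 pairs the gap between summits was at least 199 bp, with a median of 203 bp and a largest value of 1089 bp, and 39 of the gaps were between 190 and 210 bp. Whether that spacing is set by the peak caller was not tested. Acsf2 had summits 299 and 500 bp upstream with signals of 446 and 264, and CG10555 had summits 229 and 26 bp upstream with 337 and 204. BEAF-32, whose product binds CGATA, had summits 38 and 6 bp upstream of 2 of its starts, with signals of 190 and 159.

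The 500 bp limit fell where summits were fewer than near the start, with similar numbers to either side of it. Downstream of the TSS, the bin from 250 to 300 bp held 8 members and that from 450 to 500 bp held 22. The 100 bp inside it held 124 members, and 115 peaks lay in the 100 bp outside. The outermost members were Acsf2 (500 bp upstream, signal 264), Mtp (500 bp downstream, 398), Fbl6 (500 bp downstream, 849), CrebA (500 bp upstream, 162) and CG42671 (499 bp upstream, 511). Just outside were LysB (501 bp, signal 108), shep (501 bp, 135), dac (503 bp, 122), Rgl (503 bp, 134) and l(3)neo38 (504 bp, 146), each on the upstream side. The summits nearest to a start were those of RpL24 and Pym, both on the TSS, and of RpL9, Pdk and CG12895, each 1 bp upstream, with signals of 110 to 247.

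Most one-strand promoters had no peak. Of 12965 one-strand coding promoters in the annotation, 1486 had an IDR summit of any class within 500 bp of a start, 11.5% (11.3% ± 0.0802 in the replicate lists, SD, n = 3). TSS clusters with a coding TSS of the other strand within 500 bp were bound more often, 1511 of 3840 or 39.3% (37.7% ± 1.41, SD, n = 3). The order was the same in all 3 replicates. Each cluster holds starts of 1 strand, so 1 summit between opposite starts can count for the clusters of both strands. With 3 replicates of 1 group, an exact sign-flip test gives no p below 0.25. By gene, 1415 of the 10595 genes with a one-strand coding promoter had a summit there, 13.4%.

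The bound share was lower where the upstream gene was far away. One-strand promoters with a same-strand gene upstream were bound in 11.3% of 5202 cases, those with an other-strand gene upstream in 13.8% of 3161, and internal starts of genes in 12.4% of 3007. Promoters inside another gene were bound least often, in 5.42% of 1586 cases (5.49% ± 0.664 in the replicate lists, SD, n = 3). Where the upstream gene of the other strand started over 500 and up to 1000 bp away, 21.8% were bound (21.5% ± 0.256). The share was 13.1% up to 2000 bp, 10.2% up to 5000 bp and 7.59% beyond (8.03% ± 0.391). With a same-strand neighbour it was 12.6% for gaps up to 500 bp, 12.8% up to 1000 bp, 11.5% and 10.7% in the next ranges, and 6.48% beyond 5000 bp (6.71% ± 0.118). The high value at 500 to 1000 bp rested in part on summits that lie between the 2 starts and within 500 bp of both. Of the 1366 promoters whose nearest other-strand coding TSS was at that distance, 277 had any summit (20.3%) and 165 had a one-strand summit (12.1%). Among the 11599 promoters farther from one, 10.4% had a one-strand summit.

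**Figure D3:**
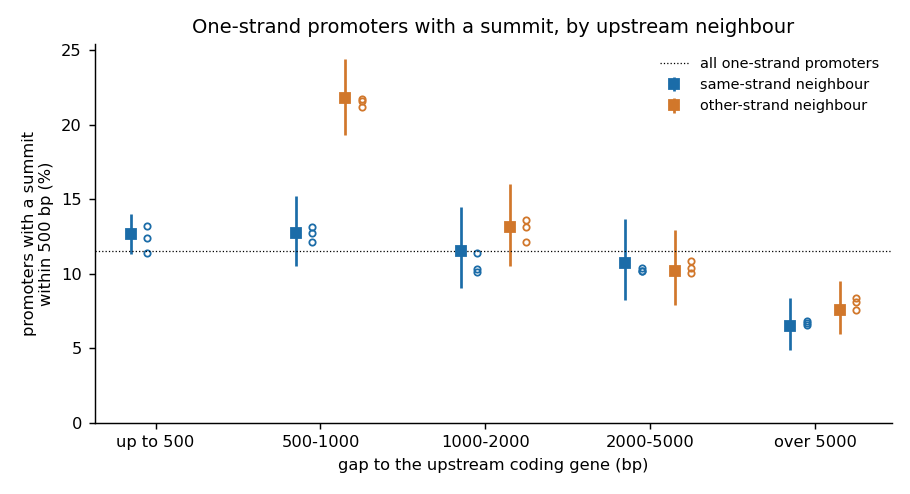
Percent of one-strand promoters with an IDR summit within 500 bp, by the gap to the upstream coding gene (bp) and its orientation. Squares are the IDR list with exact 95% intervals, open circles the 3 replicate lists, and the dotted line is the 11.5% of all one-strand promoters; promoters with an other-strand neighbour at 500-1000 bp stand highest, at 21.8%, when summits of any class are counted.

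Promoters with more annotated starts were bound more often. The share was 10.4% of 11559 promoters with 1 start position, 19.0% of 1239 with 2, and 29.3% of 167 with 3 or more, whose windows are also wider. With a noncoding TSS of the other strand within 500 bp it was 16.7% of 444 (16.2% ± 1.25, SD, n = 3), against 11.3% of the others (11.1% ± 0.126). By chromosome the bound share was 13.3% on X (12.6% ± 0.572), 10.8% on 2L, 11.2% on 2R, 11.1% on 3L and 11.6% on 3R, and the replicate means of the other large arms were 10.7% to 11.5%. On chromosome 4, which is largely heterochromatic, 4 of 103 one-strand promoters were bound (3.88%, 95% exact interval 1.07 to 9.65).

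The word DRE was present at 98 of the 1443 one-strand summits within 100 bp (6.79%), compared with 12.4% of divergent summits, 0.224% of intronic summits and 0.445% of windows 1 kb to either side of the members. In the replicate lists the one-strand share minus the divergent share was -6.27, -5.63 and -6.19 percentage points (mean -6.03 ± 0.350, SD, n = 3). It was lower at one-strand summits in 3 of 3 replicates. The exact two-sided sign-flip p was 0.25, the smallest that 3 replicates allow, and 0.333 after Benjamini-Hochberg adjustment over 12 words. Over summits within 100 bp of a TSS, a restriction added after the values were seen, the shares were 12.4% ± 0.661 and 15.5% ± 0.566, and the difference was -3.15 ± 0.830 points (exact p = 0.25). Without internal starts of genes it was -4.09 ± 0.447 points (exact p = 0.25). The difference was smaller under both restrictions, and the part of distance and of the kind of start in it was not tested.

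Most DREs lay close to the start. Its centre lay a median of 44.5 bp upstream of the TSS (quartiles 71 and 14.75 bp upstream) and 36.5 bp from the summit, and in 73.5% of the 98 members it lay 1 to 100 bp upstream. In the sequences above it begins 41 bases before the start at both RpS12 and eEF1gamma, and 9 bases before it at CG42359. Those sequences hold only the 100 bases before the start, so they could not show a word farther away. Members with a DRE had a median signal of 161, and 7 of 98 (7.14%) were among the 435 strongest IDR peaks, against 10.9% of all members. eIF6, a gene for a factor of the large ribosomal subunit, had the strongest (1152, 102 bp upstream). By quartile of signal from weakest to strongest the DRE share was 5.26%, 10.2%, 6.94% and 4.71%. It was 9.72% where a same-strand gene lay upstream, 8.0% with an other-strand gene, and 1.60% at internal starts.

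Ohler 1 was present at 52 members (3.60%), against 7.10% of divergent summits, 0.522% of intronic summits and 0.852% of flanks. Its letters read backward were found at 1.94% of members and 0.778% of flanks, and the part of base composition in the contrast was not tested. The difference from divergent summits was -2.30 ± 0.525 points in the replicates (exact p = 0.25, adjusted p = 0.333; lower in 3 of 3 replicates). Members with Ohler 1 had a median signal of 161, and 0 of 52 were among the 435 strongest, against 10.9% of all members. Both words were present at 10 members, Rnp4F among them. The core CGATA was found at 38.2% of members, 51.3% of divergent summits, 22.4% of intronic summits and 23.4% of flanks. The E-box CAGCTG was at 12.8% of members, 19.6% of divergent summits and 10.5% of flanks, with its strongest member at Hpf1, a histone PARylation factor gene (1211, 98 bp upstream).

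**Figure D4:**
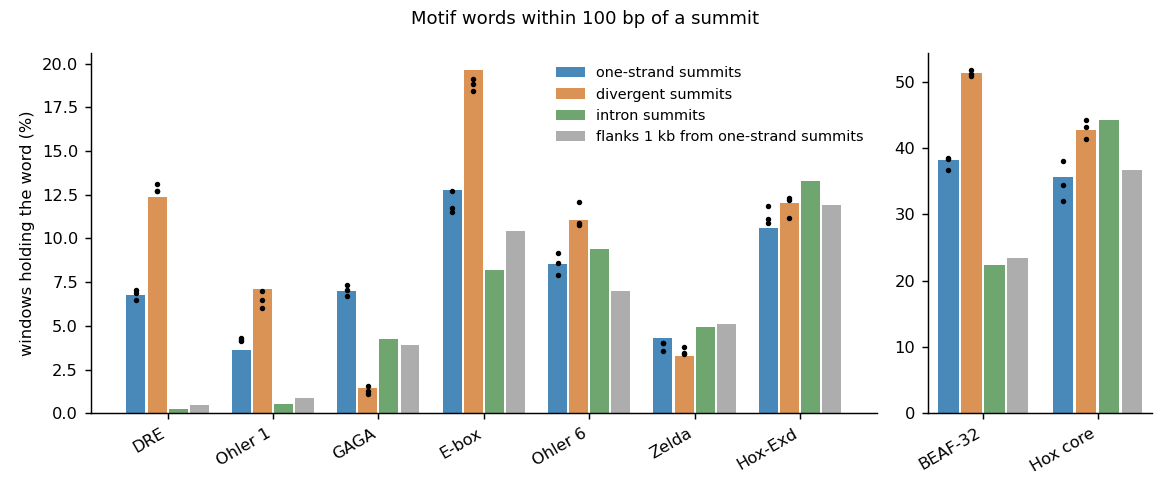
Percent of 201 bp windows that hold each word, for one-strand, divergent and intronic summits of the IDR list and for flanks 1 kb from one-strand summits (bars), with each replicate's strongest entries as black points where computed. The right panel has its own percent axis for the 2 commonest words; DRE, Ohler 1, E-box and BEAF-32 words are rarer at one-strand than at divergent summits, and GAGA is more frequent.

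GAGA repeats went the other way. They were present at 101 members (7.00%), against 1.44% of divergent summits, 4.25% of intronic summits and 3.93% of flanks. The one-strand share was higher in 3 of 3 replicates, by 5.51, 5.62 and 6.04 points (mean 5.72 ± 0.277, SD, n = 3; exact p = 0.25, adjusted p = 0.333). The word lay a median of 103 bp upstream of the TSS, farther than the DRE. In the sequence shown for CG42327 it lies closer than that median and begins 56 bases before the start. GAGA was found at 10.1% of members at internal starts, 8.0% with an other-strand gene upstream and 4.61% with a same-strand gene upstream. The 101 members had a median signal of 165 and a median GC content of 42.8%; the part of composition was not tested. After px, the strongest were CG9743 (1123), magu (782), Hmt4-20, a histone methyltransferase gene (753), and CG11857 (745), a list made after the values were seen.

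Words of Hox proteins had a lower share at the members than at divergent, intronic and intergenic summits. A Hox core was present at 514 members (35.6%), and at 36.7% of flanks, 42.7% of divergent summits, 44.1% of intronic summits and 42.6% of intergenic summits. In the replicates the one-strand share minus the divergent share was -8.04 ± 2.57 points (lower in 3 of 3, exact p = 0.25, adjusted p = 0.333). Members with a Hox core had a median signal of 178 and those without one 167, and 59 of 514 (11.5%) and 99 of 929 (10.7%) were among the 435 strongest. Median GC content was 37.8% with the core and 41.8% without, and the part of base composition in the lower share was not tested. Hox-Exd was at 10.6% of members, 12% of divergent summits and 11.9% of flanks. The Zelda word CAGGTA was at 4.30% of members and 5.11% of flanks, and the Ohler 6 core GTATNTTT at 8.52% and 6.97%.

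Read from the promoters instead of the peaks, words at the start went with different bound shares. Over windows of 100 bp to either side of the TSS, a DRE was present at 585 of the 12965 one-strand promoters (4.51%), and 132 of these had a summit, 22.6% (22.3% ± 0.549 in the replicate lists, SD, n = 3). Promoters with GAGA were bound in 19.7% of 671 cases (19.6% ± 0.0860) and those with Ohler 1 in 18.4% of 499 (20.5% ± 0.116), against 11.5% of all. With the letters of Ohler 1 read backward the share was 15.9% of 157 (exact interval 10.6 to 22.6, replicate lists 17.0% ± 0.973). With those of DRE read backward it was 10% of 50 (3.33 to 21.8, replicate lists 12% ± 3.46). The E-box CAGCTG was bound in 15.9% of 1461 cases and the E-box CACGTG in 16.3% of 319. The part of base composition in these shares was not tested. With a Hox core the bound share was 9.04% of 4149 (9.02% ± 0.174). The TATA word TATAAA, searched 45 to 20 bp upstream on the sense strand, was present at 1175 promoters, of which 57 were bound, 4.85% (4.62% ± 0.130). It stood at 3.84% of bound and 9.74% of other one-strand promoters. The initiator word TCAGT at the TSS was bound near the common share, 11.3% of 1705 (11.2% ± 1.02). The pyrimidine word CTTTT, which resembles the initiator of ribosomal protein genes, was bound in 15.3% of 262 (15.5% ± 1.17).

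Cytosolic ribosomal protein genes had the highest bound share of the 15 gene lists. Of 53 cytosolic ribosomal protein genes with a one-strand promoter, 26 had a summit there, 49.1% (51.6% ± 6.07 in the replicate lists, SD, n = 3), against 13.4% of all genes. RpL23A had the strongest (863, 96 bp upstream), followed by RpS29 (463, 9 bp upstream) and RpS28b (374, 29 bp upstream), while RpL10 and RpL10Aa had none. Of 28 translation initiation factor genes 7 were bound (22.6% ± 5.46), with eIF6, eIF3c (452) and eIF2A (298) the strongest and eIF2Bbeta and eIF2Bgamma without a summit. Mitochondrial ribosomal protein genes were bound in 4 of 20 cases (16.7% ± 2.89), among them mRpL41 and mRpL4 (401). Only beta-PheRS (266) of 15 tRNA synthetase genes was bound, and AlaRS was not.

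Other housekeeping lists lay nearer to the 13.4% of all genes than cytosolic ribosomal protein genes did. Their bound shares ran from 8.70% for respiratory chain and ATP synthase genes to 23.1% for genes with the prefix Rab. The counts take a summit of any class within 500 bp of a one-strand start. Proteasome genes were bound in 4 of 25 cases, with a divergent summit at Prosalpha3 (200) the strongest, before the members at Rpn1 (143) and Rpn10 (135), and V-ATPase proton pump genes in 4 of 22, with Vha16-1 (288) and Vha13 (216) the strongest. Respiratory chain and ATP synthase genes were bound in 4 of 46 cases, with a divergent summit at ND-ASHI (378) the strongest, before the members at ND-B17 (234) and ATPsynC (196), and ATPsynB had none. Genes with the prefix Rab were bound in 6 of 26 cases, with Rabex-5, a regulator of Rab proteins (221), Rab1 (165) and Rab18 (146) the strongest, and of 8 splicing genes 1 was bound, Prp31, by a divergent summit (135).

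Among developmental regulators, 4 of 28 Hox and segmentation genes had a summit at a one-strand promoter, 14.3% (15.5% ± 4.12 in the replicate lists, SD, n = 3), near the 13.4% of all genes. The strongest were at bcd, the anterior morphogen (342, 198 bp upstream), Scr, a Hox gene of the same complex as Antp (138, 113 bp upstream), and Antp itself (117, 220 bp upstream). Abd-B and Dfd had none. Polycomb and trithorax genes were bound in 4 of 13 cases, in the same number in each replicate, with ph-p, Trl (771, 123 bp downstream) and esc, a subunit of Polycomb repressive complex 2 (136), but not Pc or Sce. Of 7 insulator and promoter factor genes 3 were bound, row (223), BEAF-32 (190) and CTCF (184, 186 bp downstream), and not Chro or Tbp. Heat shock genes were bound in 2 of 17 cases, at Hsp27 (541) and Hsp26 (374), which encode small heat shock proteins. Chemosensory receptor genes were bound in 0 of 164 cases, which allows a share of up to 1.83% by 3 counts of the total (exact 95% upper limit 2.22%). Cuticle protein genes were bound in 0 of 69, which allows up to 4.35% (exact upper limit 5.21%). The replicate lists also gave 0 for both.

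**Figure D5:**
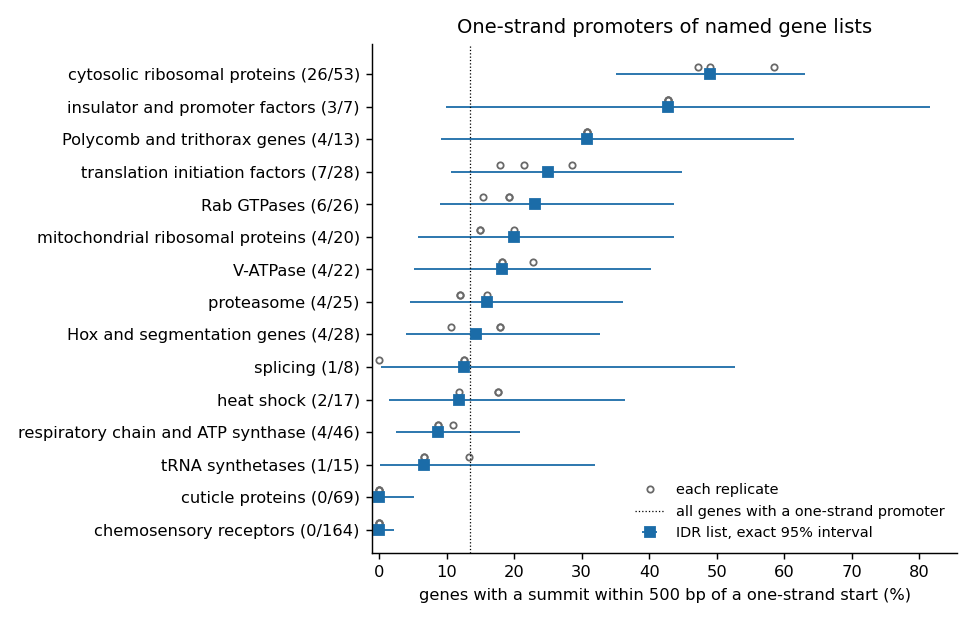
Percent of the genes of each list with an IDR summit within 500 bp of a one-strand coding start (bound over all in parentheses). Squares are the IDR list with exact 95% intervals, open circles the replicate lists, and the dotted line is the 13.4% of all genes; cytosolic ribosomal protein genes stand at 49.1% and the receptor and cuticle lists at 0.

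The IDR list was made from the same replicates, so their agreement at the members is a description. Members that shared 50% of their length in both directions with one of a replicate's strongest entries, taken to the length of the IDR list, were 72.5%, 75.1% and 74.3% (mean 73.9% ± 1.32, SD, n = 3). All 3 replicates held 774 members (53.6%). With an overlap of 1 bp the mean was 87.1% ± 0.440, and with summits within 100 bp 84.0% ± 0.472. Divergent peaks gave 72.4% ± 3.05, 89.3% ± 2.47 and 86.0% ± 2.05 under the same 3 rules, lower than the members under the first and higher under the others, each by less than the spread between replicates of divergent peaks. Of the members, 1328 had a summit within 100 bp in every full list, and the range of the 3 positions was a median of 34 bp (quartiles 17 and 59), against 33 bp at divergent promoters. The strongest members outside the common set were 2 summits at nrv1, which encodes a beta subunit of the sodium-potassium pump, at chr2L:6786962-6787425. Their signals were 724 and 670, they share 1 interval of the list, and neither met the 50% overlap rule in any replicate. The second still had an entry at ranks 153, 331 and 172 of replicates 1, 2 and 3. The next were at sgg, a GSK3 kinase gene (662), Fhos, a formin gene (632), and CG7841 (626). They met the rule in 1, 2 and 2 replicates. Yet each had an entry in all 3 replicate lists. The ranks were 267, 177 and 174 for sgg, 269, 149 and 236 for Fhos, and 271, 207 and 229 for CG7841.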

How the data were processed

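ChIP-seq peak lists of 1 group with 3 biological replicates were analysed. Per the labels and the deposited descriptions, each replicate has a list of 30000 peaks and background entries called against a control, the pooled reads have another, and the optimal IDR list of 4351 peaks was derived from them. Which aligner, caller and IDR threshold were used is not given in the sources used here. The signal of each peak is the authors' deposited value and was used only within a list, as a rank or a description. The lists in dm3 were not used here. Per the labels, controls were possible inputs and were not analysed here.

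Summits in dm6 were placed on Ensembl release 115 gene models and the RefSeq sequence of the same assembly, and coordinates are 1-based. Replicate values come from each replicate's 4351 strongest entries. Words were searched on both strands within 100 bp of a summit, except core promoter words, which were searched on the sense strand. Shares have Clopper-Pearson intervals, and the differences between summit classes an exact sign-flip permutation test over replicates, with Benjamini-Hochberg adjustment. Named genes are those at the 20 strongest members, the strongest on each arm and with each word, the 5 promoters with most summits, the nearest and farthest 5 and the 5 just outside, 3 bound and 2 unbound genes of each list, and the 5 strongest members missing from a replicate's strongest entries. The text gives part of these. Sequences are of strong peaks of each set off arm 2R whose upstream bases touch no annotated exon. Each has its summit in the 100 bases shown, and stronger members with a word farther from the start are not among them. The members, lists, words and tests were chosen with earlier results of these data known. Promoter distances of 250 and 1000 bp, midpoints, canonical transcripts, the 2175 strongest peaks, other motif windows, other overlaps and leaving out each replicate were tried. Class calls and word searches were tested on simulated data. Python 3.11.15, pandas 2.3.3, numpy 2.4.6, scipy 1.17.1 and matplotlib 3.10.9 were used.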

Additional observations from a re-analysis of the deposited data

How the results depend on the processing

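No paired analysis was possible because the series has 1 group, so that replicate numbers pair no samples across groups; differences between summit classes were taken within each replicate. Of 58 alternatives, 29 moved a value by less than 1 SD between replicates or kept the direction of a tested difference, 28 moved a value further, and 1 turned a direction. A TSS distance of 250 bp gave a one-strand share of 32.4%, 11.1% of promoters bound, DRE at 9.37% of members and a signal ratio of 0.826. At 1000 bp the shares were 36.6%, 13.4% and 5.08%, and 73.8% of summits were upstream. With 1 canonical transcript per gene the one-strand share was 26.8%, the bound share 11.6% and the DRE share 8.31%. The upper 50% of the IDR list gave 84.5% upstream, DRE at 5.81% and a signal ratio of 1.03, on the other side of 1. That list was cut by the same signal, and no replicate values were taken for it. The cause of the change was not tested. Replicate lists gave 76.7% upstream, 11.3% bound and a ratio of 0.894. Motif windows of 50 and 250 bp gave DRE at 4.02% and 10.3%. An overlap of 1 bp or summits within 100 bp raised agreement to 87.1% and 84.0%. Clusters with 1 start position, an alternative added after the values were seen, gave 82.0% upstream. The DRE difference was -2.91 and -11.4 points with windows of 50 and 250 bp (exact p = 0.25), -3.15 and -4.09 under the 2 added restrictions, and -6.23 to -5.91 with 1 replicate left out (exact p = 0.5, the smallest that 2 replicates allow). Leaving out 1 replicate gave one-strand shares of 33.0% to 33.5%, upstream shares of 75.5% to 77.6%, bound shares of 11.2% to 11.3%, DRE shares of 6.68% to 6.99%, signal ratios of 0.887 to 0.903 and agreement of 73.4% to 74.7%. Read depth is unknown, 1 group without controls allows no test of occupancy, and signals cannot be compared between lists.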
